A study of Danio rerio with 12 samples.

Results

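The period genes per1a, per1b, per2 and per3 of zebrafish (Danio rerio) were taken by their gene symbols, and each matched 1 row of the deposited tables, 4 genes of 32674 in all. Period proteins are repressors in the circadian clock, the feedback loop that gives cells a daily rhythm. In that loop the Clock and Bmal proteins bind E-box elements and switch on period and cryptochrome genes, and Period and Cryptochrome proteins then enter the nucleus together and block Clock and Bmal. The mRNAs of period genes are therefore among the most strongly rhythmic in many tissues, brain included. In zebrafish, per1a and per1b are duplicates that correspond to the single mammalian Per1, and per2 is known as a gene that light switches on.

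The samples were brains of adult fish of the EK strain, from the F3 generation of a pair of lineages. In the methylmercury (MeHg) lineage, F1 eggs were held in 0.03 µM methylmercury, an organic mercury compound, for 24 h, and in the control lineage F1 eggs were held in 0 µM, with ethanol as the vehicle in both. Neither F2 nor F3 fish met added methylmercury. Per the labels each lineage had 6 biological replicates, with no word on whether fish were pooled. Values came from 5 libraries of the control lineage, numbered 2, 4, 5, 6 and 8, and from 6 of the MeHg lineage, numbered 1, 2, 4, 5, 7 and 8, and p-values measure the spread between these samples. The labels also list a control replicate 1, for which there was no named column of values. The hour of collection is not given in the labels, so lineage and time of day cannot be told apart for rhythmic genes.

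Expression is given on 2 scales. The scaled count is a fragment count after division by the library's size factor, as deposited by the authors, and serves to compare a gene between libraries. FPKM is also divided by transcript length and serves to compare levels between genes. Implied depth, read from the smallest repeated step of the values, was 2062484 to 7503932 fragments per library. Brain markers were present in every library, with a summed FPKM of 10 neuronal genes (snap25a, snap25b and sypa most abundant) between 2801.5 and 3957. Markers of neighbouring tissue varied widely within both lineages. The summed FPKM of 15 epidermis genes (icn, krt91 and krt5 most abundant) was 11706 and 1519 in control replicates 4 and 5, 5278 and 8317 in MeHg replicates 4 and 5, and 244 to 955 in the other libraries. That of 14 skeletal muscle genes (mylpfa, ckmb and ckma) was 3539 in MeHg replicate 4 and 32.1 to 667 elsewhere. That of 15 retina and pineal genes (rho, opn1lw1 and gnat1) was 5512 in MeHg replicate 8 and 30.5 to 301 elsewhere. None of these 4 sums differed between lineages beyond the spread (exact permutation test, two-sided p from 0.509 to 0.924), and neither did that of 8 glia and myelin genes (exact p = 0.740). Where single libraries dominate a sum, as MeHg replicate 8 does for retina and pineal, this test cannot show that tissue content was alike. The median log2 fold change of 14 tested retina and pineal genes, MeHg minus control lineage, was 1.16, and none had a limma adjusted p under 0.05.

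Messages of per1a, per1b and per3 were lower in brains of the MeHg lineage, and in each the 6 MeHg libraries lay below all 5 control libraries. Such complete separation downwards was seen in 0.739% of the 16364 genes tested. The difference of per2 was smaller and its libraries overlapped. By limma with Benjamini-Hochberg adjustment over all tested genes, 3 of the 4 period genes were lower, where 0.171% of all tested genes were. Testing needed a scaled count of 10 in 6 libraries, so genes that reached it only in the 5 control libraries are missing from both shares. With no such filter, 28 of 26056 genes were lower by limma. RNA from a whole tissue cannot tell fewer expressing cells from less message per cell.

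**Figure D1:**
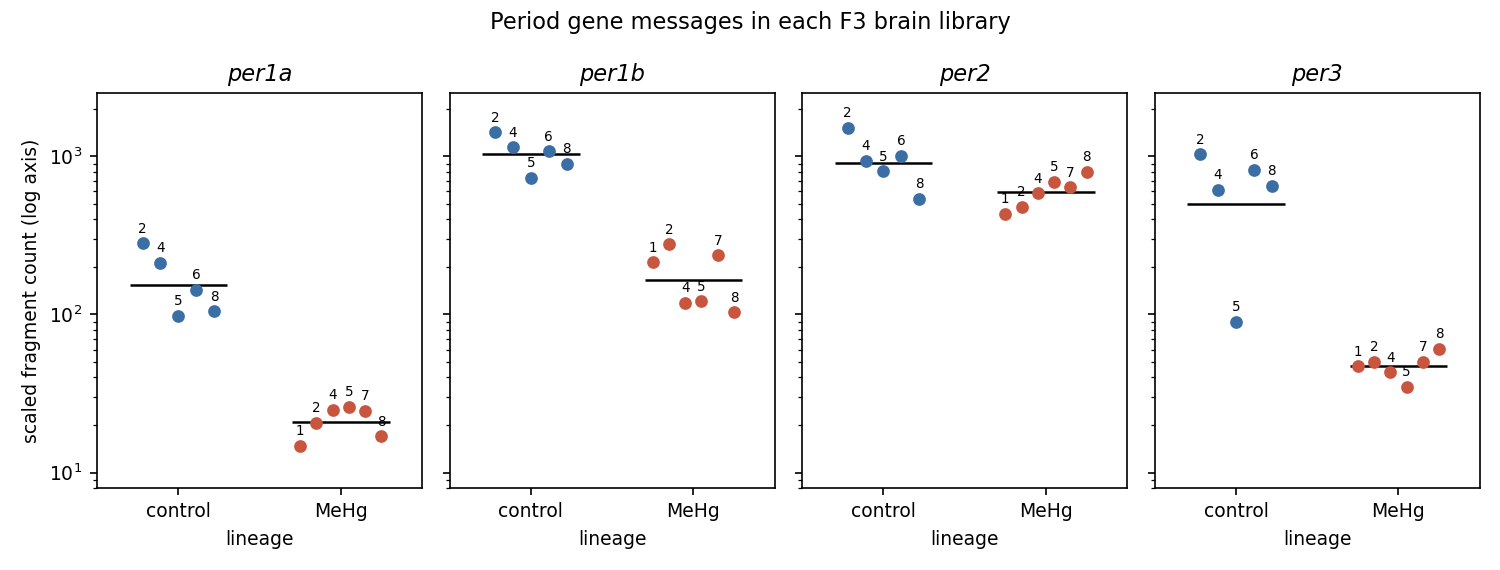
Scaled fragment count (log axis) of each period gene in every library, by lineage; numbers beside points are replicate numbers and black lines are means of log2 values, turned back to the count scale. Points of per1a, per1b and per3 do not overlap between lineages, control replicate 5 stands low for per3 at 89.9, and the points of per2 overlap.

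The duplicates per1a and per1b are considered first. The scaled count of per1b was 1417 in control replicate 2, 1140 in replicate 4, 734 in replicate 5, 1081 in replicate 6 and 897 in replicate 8. In the MeHg lineage it was 103 at the lowest, 168 at the median and 279 at the highest. The lowest control library thus held 734 and the highest MeHg library 279. This was a 6.15-fold lower level, or -2.62 ± 0.27 on the log2 scale (SE, limma adjusted p = 0.00040). Leaving out any 1 library gave log2 fold changes from -2.77 to -2.48, all past the threshold.

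For per1a the counts were low throughout. Control replicates 2, 4, 5, 6 and 8 held 281, 213, 98.2, 144 and 104 scaled counts. MeHg libraries held 14.8 at the lowest, 22.6 at the median and 26.1 at the highest, which correspond to 11 to 39 implied fragments each. Even the highest MeHg value was below the lowest control value. The level was 7.11-fold lower, -2.83 ± 0.29 on the log2 scale (SE, limma adjusted p = 0.00035). The log2 value lay between -2.99 and -2.61 when any 1 library was left out, always past the threshold. On FPKM with a pseudocount of 1, which exceeds every FPKM value of per1a in the MeHg lineage, it was -1.92 (limma adjusted p = 0.0040).

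The gene per3 had the largest fold of the 4 and the least even control group. Its scaled count was 1035 in control replicate 2, 614 in replicate 4, 826 in replicate 6 and 652 in replicate 8, but 89.9 in replicate 5. MeHg libraries held 34.8 at the lowest, 48.6 at the median and 60.6 at the highest, or 34 to 52 implied fragments. Control replicate 5 therefore stood nearer to the MeHg libraries than to the other control libraries, yet above all of them. The level was 10.4-fold lower, -3.38 ± 0.50 on the log2 scale (SE, limma adjusted p = 0.0088). Without control replicate 5 it was -3.996 (limma adjusted p = 1.31e-07). Leaving out any 1 library gave log2 fold changes from -3.996 to -3.12, all past the threshold, with limma adjusted p up to 0.0427. With the authors' size factors undone the log2 fold change of per3 was -3.09 ± 0.61 (SE) and did not pass (limma adjusted p = 0.0654). That setting moved the median over all tested genes from 0.03 to 0.30 on the log2 scale.

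Control replicate 5 was also the lowest control library for per1a and per1b, at 98.2 and 734, while for per2 control replicate 8 was lower, at 541 against 805. The share of mitochondrial genes in this library was 11.7%, similar to the 11.7% of control replicate 8, and its summed epidermis FPKM was 1519. Its total scaled count (5717056), its FPKM total (893439) and its glia and myelin sum (16860 FPKM) were the highest of all libraries. Its number of genes above 0 was 20608, where control replicate 2 had the fewest at 20505. The part of these measures in its period gene values was not tested. Among the 14 clock genes that were lower in the MeHg lineage, period genes included, control replicate 5 was the lowest control library in 4, control replicate 8 in 6, and control replicate 2 was the highest in 12. Among the 8 clock genes counted as higher, control replicate 5 was the lowest control library in 7.

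The light-responsive gene per2 did not pass the threshold. Control replicates 2, 4, 5, 6 and 8 held 1516, 940.0, 805, 1009 and 541 scaled counts. MeHg libraries held 434 at the lowest, 613 at the median and 802 at the highest. Of the 6 MeHg libraries, 2 lay below every control library and 4 lay above control replicate 8, while 4 control libraries lay above every MeHg library. The log2 fold change was -0.62 ± 0.24 (SE, 95% interval -1.13 to -0.11 before adjustment, limma unadjusted p = 0.0219, adjusted p = 0.643). It remained negative, from -0.80 to -0.43, when any 1 library was left out, and did not pass in any of these fits.

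Within a lineage the 4 genes did not follow a single order of libraries. Control replicate 2 held the highest control value of all 4. In MeHg replicates 1, 2, 4, 5, 7 and 8, per1b stood at 215, 279, 119, 121, 237 and 103, and per2 at 434, 481, 587, 692, 639 and 802. The library with the highest per2 value, replicate 8, thus held the lowest per1b value. In the same order of libraries the summed epidermis FPKM was 244, 395, 5278, 8317, 365 and 955, and the retina and pineal sum was 110, 142, 114, 30.5, 301 and 5512. The part of these tissues in the period gene values was not tested. The 7 libraries with an epidermis sum under 1000 FPKM were control replicates 2, 6 and 8 and MeHg replicates 1, 2, 7 and 8. In these 7, 3 period genes were lower past the threshold, where 32 of 16364 tested genes were. Their log2 fold changes were -3.03 for per1a, -2.50 for per1b and -3.97 for per3, with limma adjusted p from 3.00e-06 to 0.0309. In those among them with a retina and pineal sum under 1000 FPKM as well, 6 libraries without MeHg replicate 8, these log2 fold changes were -2.98, -2.19 and -4.04. All 3 passed the threshold, where 32 of 16364 tested genes were lower. Both sets lack control replicate 5, and leaving out that library alone gave -3.996 for per3.

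Spread around the lineage mean also differed by gene and lineage. The SD of the log2 scaled count of per3 was 1.41 in the control lineage, above that of 94.1% of tested genes, and 0.26 in the MeHg lineage, above that of 43.0%. The control value rested largely on control replicate 5, at 6.51 on the log2 scale where the other control libraries ran from 9.26 to 10.02. On scaled counts the control SD of per3 was 352 with that library and 193 without it. On the log2 scale the limma SE of its fold change was 0.50 with that library and 0.18 without it. For per1b the log2 SD was 0.36 in the control lineage (above 37.9% of genes) and 0.61 in the MeHg lineage (above 86.8%). The median SD over all tested genes was 0.44 in control and 0.29 in MeHg libraries.

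Whether the period genes differed from each other in their lineage difference was tested on the log2 ratio of a pair of them within each library, over 6 pairs (exact two-sided permutation test over 462 divisions of the libraries, adjusted over the 6 pairs). Each of the 3 ratios with per2 differed between lineages. The log2 ratio of per1a to per2 went from -2.55 ± 0.36 (SD, n = 5) to -4.76 ± 0.37 (SD, n = 6), a change of -2.21 (exact permutation test, adjusted p = 0.0065). The raw p of that pair, 0.0022, is the smallest that this number of libraries can give. The log2 ratio of per1b to per2 went from 0.18 ± 0.35 to -1.83 ± 0.88, a change of -2.004 (exact permutation test, adjusted p = 0.0087), and that of per2 to per3 from 0.87 ± 1.32 to 3.63 ± 0.40, a change of 2.76 (exact permutation test, adjusted p = 0.0065). In all 3 ratios the lineages did not overlap. For per2 to per3 the gap was narrow, with control replicate 5 at 3.15 and the lowest MeHg library at 3.18. Since per2 is part of each, these tests are not independent of one another.

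Ratios among per1a, per1b and per3 did not differ past the threshold. That of per1a to per1b changed by -0.21 ± 0.33 (SE, exact permutation test, adjusted p = 0.545), with control libraries between -3.09 and -2.33 and MeHg libraries between -3.77 and -2.17. The ratio of per1a to per3 changed by 0.55 ± 0.54 (SE, exact permutation test, adjusted p = 0.356) and that of per1b to per3 by 0.76 ± 0.56 (SE, exact permutation test, adjusted p = 0.260). Both of these rested on control replicate 5. Without it they changed by 1.004 and 1.25 (exact permutation test, adjusted p = 0.0286 for each), so that the loss of per3 was then larger than those of per1a and per1b.

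**Figure D2:**
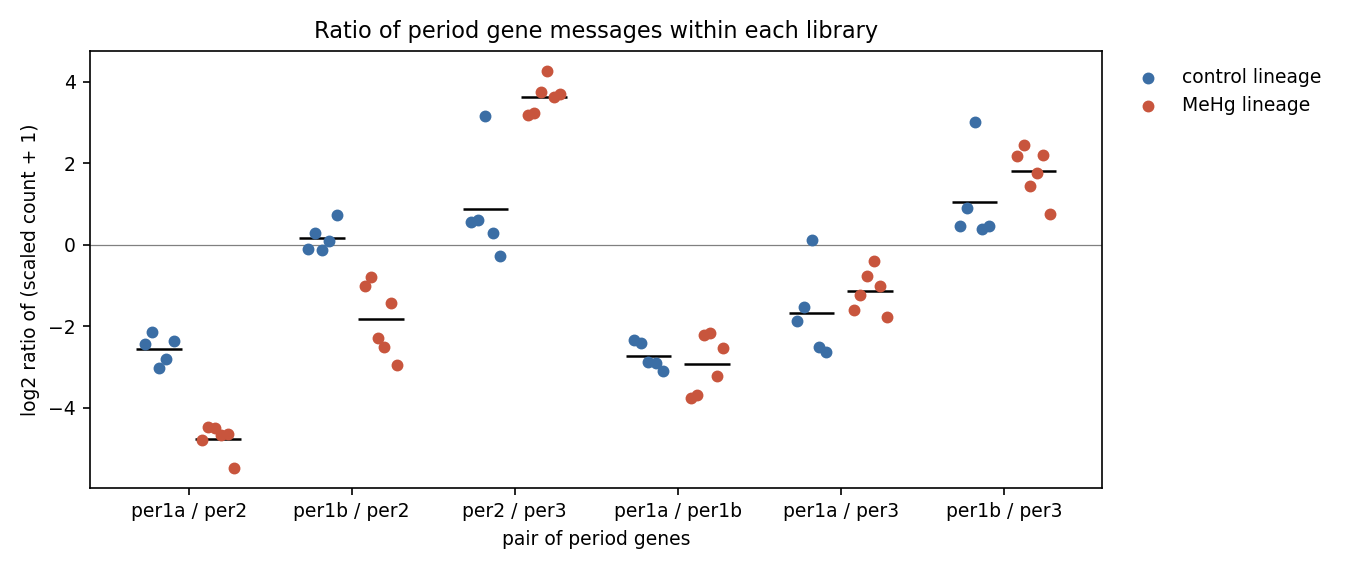
Log2 ratio of the scaled counts (each plus 1) of a pair of period genes in each library, by lineage, with black lines at the mean. The 3 ratios that hold per2 separate the lineages, that of per2 to per3 only narrowly. The other 3 overlap, with control replicate 5 as the high point of the ratios of per1a and per1b to per3.

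Levels between the genes were compared per length, in FPKM. In control libraries per2 had a mean of 32.8 ± 12.3 (SD, n = 5), per1b 27.9 ± 6.88, per3 25.2 ± 13.4 and per1a 5.93 ± 3.27. The ranges of per2, per1b and per3 overlapped, and their order varied: per2 was first in 4 of 5 libraries and per3 in control replicate 8. In every control library per1a was last, although its range, 2.99 to 11.2, overlapped that of per3 through control replicate 5 (3.88). Among tested genes, per2 stood above 84.0% by mean FPKM, per1b above 81.1%, per3 above 78.9% and per1a above 35.9%.

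In the MeHg lineage the order was the same in all 6 libraries. It ran from per2 at 20.5 ± 4.66 FPKM (SD, n = 6) through per1b at 4.74 ± 1.96 and per3 at 1.90 ± 0.40 to per1a at 0.69 ± 0.17, and no neighbouring ranges overlapped. By mean FPKM per2 stood above 75.2% of tested genes, per1b above 29.0%, per3 above 8.40% and per1a above 0.715%. Only the 16364 of 32674 genes that reached the minimum for testing were ranked, so weaker genes are left out. Of the summed FPKM of the 4 genes, per2 made up between 25.7% and 51.4% in the control lineage and between 62.1% and 83.0% in the MeHg lineage. The sum itself ran from 54.1 to 140 in control and from 22.5 to 32.7 in MeHg libraries, so the larger share of per2 came with lower FPKM of the other genes. The ratio of FPKM to scaled count was nearly fixed for per1b, at 2.65 FPKM per 100 scaled counts in every library. It varied from 3.04 to 3.99 for per1a and from 3.82 to 4.75 for per3, so levels of these between libraries carry that extra variation in FPKM.

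**Figure D3:**
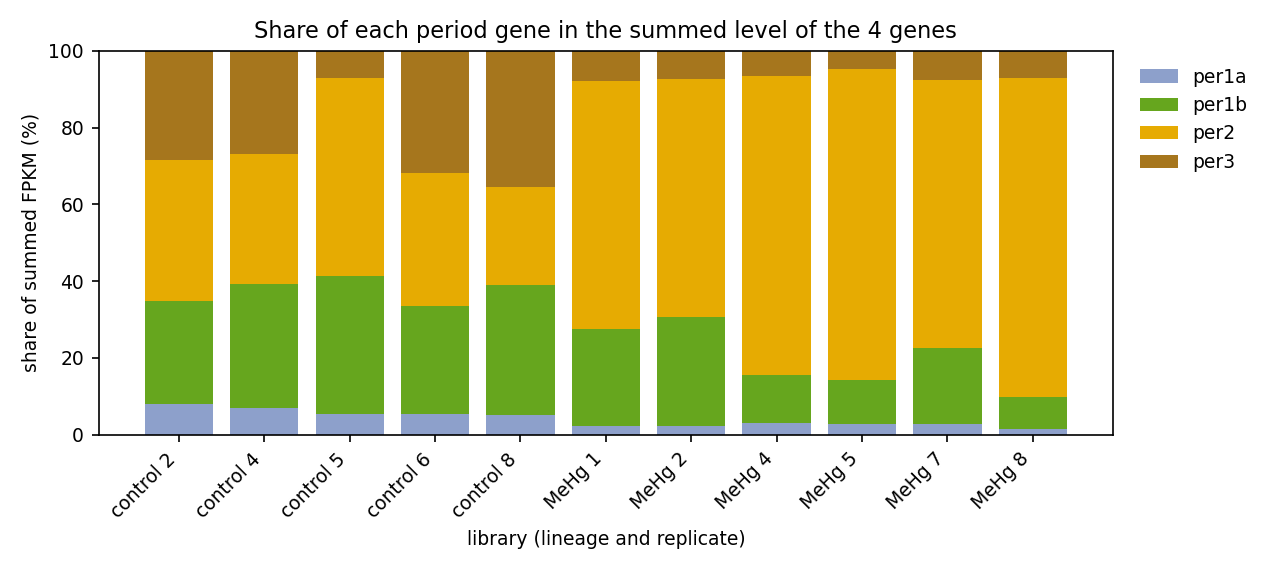
Share of each period gene in the summed FPKM of the 4 genes (y axis, percent) in each library (x axis). The share of per2 lies between 25.7% and 51.4% in the control lineage and between 62.1% and 83.0% in the MeHg lineage.

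Other clock genes were described by their role towards Period, in lists chosen with earlier results of these data known. Of 60 tested genes in 7 lists, fbxl3l entered the test only through the MeHg libraries, in which it was high, and is left out of the counts. Of the other 59, 8 were higher and 11 lower, against 0.269% of all tested genes past the threshold in either direction. Their median log2 fold change was -0.02 and that of all tested genes 0.03. Among the 6 Clock and Bmal activators, which switch period genes on, 3 were higher and none lower. The Bmal gene arntl1a had 182 ± 41.6 scaled counts (SD, n = 5) in control and 446 ± 37.4 (SD, n = 6) in MeHg-lineage brains (limma adjusted p = 0.00061), and clocka from 97.9 ± 25.4 to 309 ± 81.6 (limma adjusted p = 0.0025). Without scaling, or in the 7 or 6 libraries above, 2 of the 6 were higher, and in the 8 libraries whose replicate number both lineages share none was.

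Of 6 other repressors of E-box transcription, 5 were lower and none higher, where 0.171% of all tested genes were lower. The basic helix-loop-helix repressor gene bhlhe41 fell from 1019 ± 245 to 254 ± 56.8 (limma adjusted p = 0.00017), and ciarta, whose product represses Clock and Bmal, from 225 ± 95.6 to 18.8 ± 8.54 (limma adjusted p = 0.00040). Without scaling 2 of these 6 were lower, in the 7 libraries with little epidermis signal 3, and in the 6 libraries 2. With either control replicate 2 or 6, or either MeHg replicate 5 or 7, left out it was 3, and 2 in the 8 libraries with shared numbers. All 6 had negative values without scaling and in the 7 or 6 libraries.

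Cryptochromes, the partners that enter the nucleus with Period, went both ways. The list of 7 also held photolyase relatives, and 3 were lower and 1 higher, where 0.269% of all tested genes passed in either direction. The members with the smallest p were 2 such relatives, cry5 at a log2 fold change of -2.90 ± 0.23 (SE) and cry-dash at -2.68 ± 0.22 (SE, limma adjusted p = 6.28e-05 for each). The other members past the threshold were cry1a, lower at -1.02 ± 0.14, and cry2b, higher at 1.78 ± 0.16 (SE, limma adjusted p = 0.0046 and 0.00015). Without control replicate 5, 2 of the 7 were higher. Without scaling, in the 6 libraries above, or in the 8 libraries with shared numbers, 2 of the 7 were lower. Cryptochrome turnover depends on F-box proteins. The F-box gene fbxl3l held 0 to 4.66 scaled counts in control and 12.7 to 54.5 in MeHg libraries. It reached the minimum for testing in MeHg libraries only, so no test is given for it, and with any 1 of them left out it was not among the tested genes. Its relative fbxl3b differed by 0.16 ± 0.23 on the log2 scale (SE, limma adjusted p = 0.930).

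A further list of 20 genes covered kinases, ligases and other binding partners of Period proteins. It included casein kinase genes, whose products phosphorylate Period and mark it for degradation. Of these 20, none was higher and none lower by limma, with 1 (csnk1db) at an unadjusted p under 0.05, and none passed under any of the scaling alternatives or in the 6 or 7 libraries above. With 0.269% of all tested genes past the threshold, none among 20 is near the background share, and no difference from the other lists was tested. The casein kinase genes csnk1db and csnk1da had the smallest p, at log2 fold changes of -0.31 ± 0.13 and -0.27 ± 0.13 (SE, limma adjusted p = 0.683 and 0.796). Over the list, log2 fold changes ran from -0.31 to 0.14 with a median of -0.02. Scaled counts of csnk1e were 776 and 794 in control and MeHg means, and those of timeless 202 and 195.

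Receptors and factors that act through other elements were mixed. Over all tested genes 0.269% passed the threshold in either direction. Of 10 Rev-erb and ROR receptor genes, which set Bmal expression, 2 were higher and 2 lower (1 and 1 in the 7 libraries with little epidermis signal), led by nr1d2b at -2.68 ± 0.14 (SE, limma adjusted p = 1.27e-06) and rorcb at 3.06 ± 0.32 (SE, limma adjusted p = 0.00040). Of 9 D-box factors, 2 were higher and 1 lower, while 4 were higher and 2 lower without control replicate 5 and 3 and 2 in the 7 or 6 libraries. On the log2 scale the repressor nfil3-5 changed by 3.20 ± 0.23 and the activator tefa by -1.61 ± 0.13 (SE, limma adjusted p = 3.60e-05 and 6.28e-05).

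**Figure D4:**
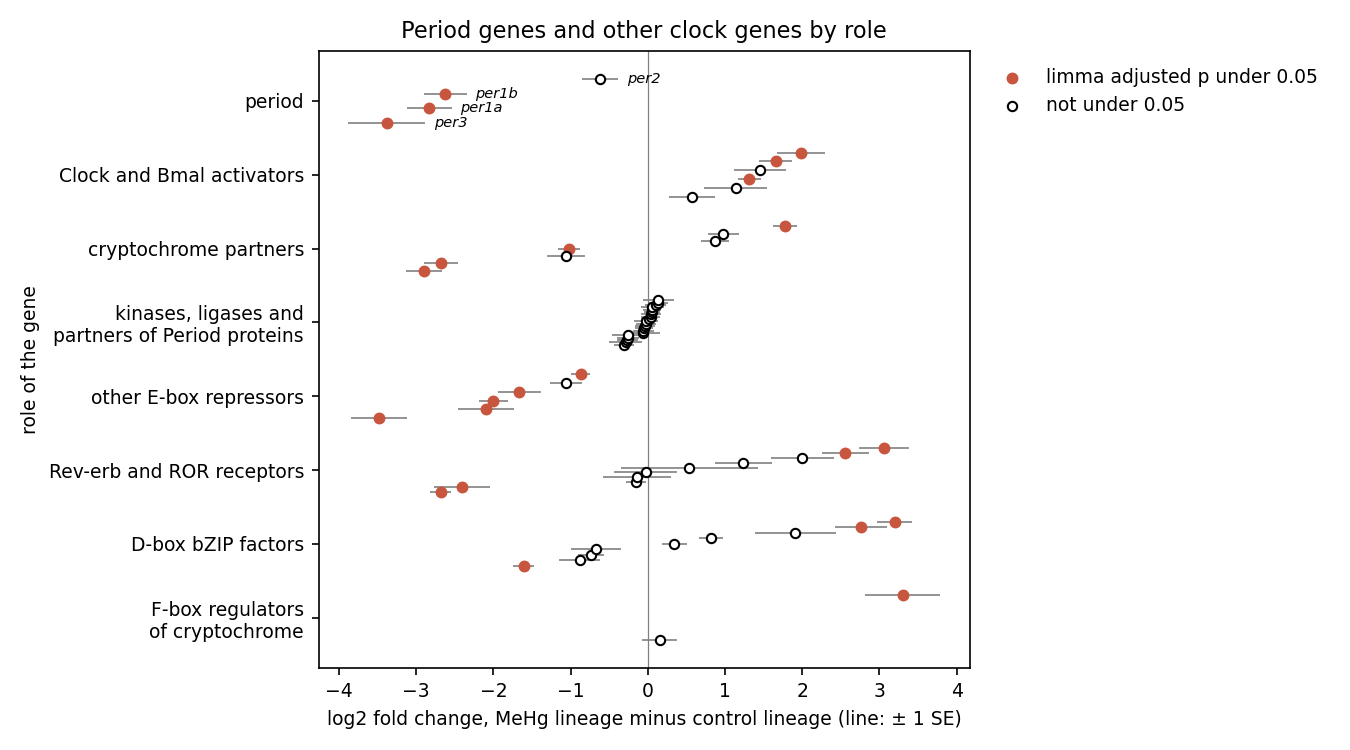
Log2 fold change, MeHg minus control lineage (x axis), of each tested clock gene grouped by role (y axis), with lines of 1 SE; filled points passed a limma adjusted p of 0.05. Of the period genes 3 of 4 are filled, and of the 20 genes for kinases, ligases and partners of Period proteins none is, with values between -0.31 and 0.14. The filled F-box gene is fbxl3l, which reached the minimum for testing in MeHg libraries only, so its filled point is not counted as passed.

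Genes whose profile was most like that of a period gene were found by the root mean square difference of centred log2 values over all 11 libraries. Only tested genes with a symbol other than a clone-style name are listed. A gene without one was nearer still to per1b (0.33) and, among genes other than period genes, to per3 (0.91). Nearest to per1a were cry-dash (0.42 log2 units), nr1d1 (0.48) and nr1d2b (0.48), and nearest to per1b were cry-dash (0.35), ddb2 (0.42) and nr1d2b (0.42). From per1a, its duplicate per1b was seventh at 0.54. The genes closest to per3 were per1a (0.80) and per1b (0.88), followed among other named genes by cipca (0.97), nr1d2b (0.98) and cry-dash (0.996). The profile of per2 was closest to lonrf1l (0.23), PLPP1 (0.29) and osgn1 (0.31), none of which passed the threshold, and it lay far from per1a (1.15), per1b (1.18) and per3 (1.61). These distances include the lineage difference.

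With each gene centred on its lineage mean, which removes that difference, other genes came first. By the same naming rule the nearest were foxj2 and gfpt1 to per1a (0.25 each), nkx2.1 and d2hgdh to per1b (0.20 each), txndc12 and lonrf1l to per2 (0.21 and 0.23), and magixa and cpeb3 to per3 (0.14 and 0.15). For per3 this likeness rests largely on control replicate 5, whose log2 value was 6.51 where the other control libraries ran from 9.26 to 10.02. A gene without a symbol was nearer to per1a (0.24) and to per1b (0.12). Only lonrf1l was named for the same period gene by both measures. By this second measure per2 was 0.33 from per1a and 0.63 from per1b. Library by library, per1a therefore lay closer to per2 than to per1b, at 0.53, although its lineage difference was like that of per1b. These are descriptions over 11 libraries, which differ in depth and in the tissue markers given above, and values of all genes in a library share both.

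Genes next to the period genes were looked up in the order of protein-coding genes in RefSeq's GRCz12tu assembly, a later build than the one the authors used, so that no positions are given. This choice was made after the period gene values were seen. The vesicle membrane protein gene vamp2 is next to per1a and its relative vamp3 next to per3, while hes6, a transcriptional regulator gene of the Hes family, is next to per2. The collagen-processing enhancer genes pcolcea and pcolceb are next to per1a and per1b. Scaled counts of vamp2 were 562 ± 247 in the control lineage (SD, n = 5) and 591 ± 154 in the MeHg lineage (SD, n = 6), those of vamp3 147 ± 65.8 and 201 ± 43.6, and those of hes6 164 ± 52.9 and 180 ± 23.1. Tested genes separated from a period gene by untested genes are not given. None of the 5 neighbours passed the threshold. With 0.269% of all tested genes past it, none among 5 is near the background share. Their log2 fold changes were 0.23 ± 0.38 for vamp2, 0.54 ± 0.27 for vamp3, 0.18 ± 0.18 for hes6, 0.26 ± 0.69 for pcolcea and -0.08 ± 1.06 for pcolceb (SE, limma adjusted p from 0.791 to 0.994).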

How the data were processed

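Brain RNA libraries were sequenced as paired-end reads of 100 bp, per the labels' protocols. Per the submitters' processing notes, the genome build was Zv9 and the tools included TopHat and Cuffnorm, CASAVA 1.8.2, cutadapt and FastQC, with no settings. Strand, annotation and the treatment of reads shared by gene copies, which bears on per1a and per1b, were not given in the sources used here. The authors deposited a table of signal values, read here as fragment counts divided by a size factor per library, because in each library 98.2% to 98.9% of low positive values (under 200 times the step) came out whole, within 0.01, when divided by the most common low value, and a table of FPKM values, scaled by the authors for length and depth. A column without a name, 1 in either table, was not used. It may hold control replicate 1, which has no named column, but nothing in the sources used here says so. Implied fragments and depths are given without an interval. The interval given for per2 is that of limma, from the spread between libraries.

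Genes that reached a scaled count of 10 in 6 or more libraries entered limma 3.58.1 as log2(value + 1) (eBayes, trend and robust, statmod 1.5.0, R 4.3.3), with a threshold of 0.05 on Benjamini-Hochberg adjusted p. Fold changes are on that log2 scale, which understates those of weakly expressed genes. The script was tested on simulated data. The planned counts-based tests and the planned description of promoter and protein sequences were not used here. Members and gene lists were chosen with earlier results of these data known. Genes were named by rule: all members, 2 per clock list by smallest p, and 3 per marker list by level. By likeness 3 (all libraries) or 2 (within lineages) were named. The genes csnk1e, timeless, fbxl3b, cry1a, cry2b and the neighbours were added after their values were seen. Python 3.11.15, pandas 2.3.3, numpy 2.4.6 and matplotlib 3.10.9 were used.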

Additional observations from a re-analysis of the deposited data

Results flagged for a closer look

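In 20 sets of libraries of a lineage (4 period genes and 6 ratios between them), 4 held a library set apart from the rest by a gap that is large for the range of the set. Chance sets apart a library in about 1 in 20 such sets, and 3 of the 4 share per3 and the same library, so they are not separate findings. Control replicate 5 stood apart for per3, at a log2 value of 6.51 where the other control libraries ran from 9.26 to 10.02, and for the log2 ratios of per1b to per3, at 3.02, and of per2 to per3, at 3.15. MeHg replicate 8, the library with a retina and pineal sum of 5512 FPKM, stood apart for the log2 ratio of per1a to per2, at -5.48. The cause was not tested in any of them.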

How the results depend on the processing

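With 1 library left out in turn, 34 to 72 genes passed the threshold (44 with all libraries, 72 without control replicate 5), and the calls of the 4 period genes held in all 11 fits. The difference between per1a and per3 ran from 0.31 to 1.004 and that between per1b and per3 from 0.60 to 1.25, both past the threshold only without control replicate 5. With the size factors undone 24 genes passed and per3 did not (-3.09). Replicate numbers were shared by 4 pairs of libraries, whose deviations correlated at 0.06 to 0.46, not all above 0.1. Not every library correlated best with its own number, but the pair numbered 4 had the highest correlation across lineages. Libraries numbered 4 and 5 were also those with epidermis sums above 1000 FPKM, in both lineages. The labels do not say whether a shared number marks a shared batch, and these correlations cannot decide it. With the replicate block on the 8 libraries with shared numbers 20 genes passed, and per1a (-2.79) and per3 (-3.22) did not. In the same 8 libraries with no block 23 passed and per3 (-3.22) did not. With the block 0 of 6 activators were higher and 1 of 6 other E-box repressors lower, and without it 0 and 2. Under a filter of 50 per1a was not tested. All other alternatives (other scalings, no filter, pseudocounts, FPKM, limma without trend, 7 or 6 libraries) kept the direction and call of every period gene tested, with log2 fold changes from -4.04 to -0.59, where per2 never passed. The 2 scalings other than none, the 7 or 6 libraries and the unblocked 8 were chosen after seeing the data. TMM scaling and a count test were not run, since the values are not raw counts. Depth limits per1a and per3 most, at 11 to 52 implied fragments in MeHg libraries.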
